A study of Homo sapiens with 6 samples.

Results

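The genes described here encode 5 ligands of NKG2D, an activating receptor of natural killer (NK) cells and cytotoxic T cells: MICA, MICB, ULBP1, ULBP2 and ULBP3. They were picked by gene symbol from a table of read counts for 60708 genes, and each symbol matched 1 gene. The counts came from total RNA of Caki-1, a human clear cell carcinoma line of the kidney, with 3 samples in each of 2 groups. VC cells (genotype WT) had been infected with the lentiviral CRISPR vector alone. VHL-KO cells had been infected with CRISPR/Cas9 lentivirus encoding a guide RNA against VHL, selected with puromycin and grown as clonal knockout lines that were checked by immunoblot. The number of clones behind the 3 VHL-KO samples is not given in the sources used here, so the effect of the knockout and the properties of a clone cannot be told apart. The labels do not say that the 3 samples of a group were separate cultures, and the p-values then measure only the spread between these samples, which may be technical.

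NKG2D ligands are distant relatives of MHC class I molecules that mark stressed, infected or transformed cells for NK and T cell attack. MICA and MICB are transmembrane proteins encoded within the MHC, next to HLA-B. The ULBP proteins are encoded elsewhere on the same chromosome, and several of them are held in the membrane by a glycosylphosphatidylinositol (GPI) anchor. Transcription of the ligand genes responds to heat shock, DNA damage signalling and growth control, and ligands can be shed from the cell surface by proteases. VHL is the substrate-binding part of the ubiquitin ligase that degrades hypoxia-inducible factors, which bind DNA at a short core written ACGTG or GCGTG.

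MICB, ULBP2 and ULBP3 mRNA fell in VHL-KO cells, each to well below the VC samples, while the change of MICA did not pass the test. The level of MICB was 2.98-fold lower in VHL-KO than in VC cells, that of ULBP2 2.85-fold and that of ULBP3 2.46-fold. ULBP1 was close to the limit of detection in both groups. With edgeR's quasi-likelihood test and Benjamini-Hochberg adjustment across 17401 genes, each reaching 10 reads in at least 1 sample, 3 of the 5 genes passed an adjusted p of 0.05, all 3 lower in VHL-KO cells. Over all tested genes 59.7% passed, 31.2% lower and 28.5% higher in VHL-KO cells, so a change past this threshold was common in this comparison. All 3 VHL-KO samples lay below all 3 VC samples for MICB, ULBP2 and ULBP3, each of which reached 10 reads in both groups. The same held for 33.5% of the tested genes, where chance alone gives 5% in a given direction for 3 against 3 samples. All 5 genes passed the filter on low counts, but ULBP1 did so only through its VC samples. Its samples were also separate, but because of this filter ULBP1 is not set against these shares. Because the samples are bulk RNA, fewer cells that carry an mRNA and less of it per cell cannot be told apart.

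The promoters of MICA and MICB are shown because MICB fell while MICA, its close paralog, did not pass the test, and those of ULBP2 and ULBP3 because both genes fell. All 5 members had a RefSeq promoter (GRCh38.p14), a window of 300 bases with 250 before the start site, written 5′ to 3′ on the strand of the gene. The windows are chr6:31403345-31403644 (plus strand) for MICA, chr6:31497895-31498194 (plus strand) for MICB, chr6:149941764-149942063 (plus strand) for ULBP2 and chr6:150069072-150069371 (minus strand) for ULBP3. Capitals mark matches, on either strand, to the hypoxia response element cores ACGTG and GCGTG, the GC box GGGCGG and the CCAAT box.
MICA: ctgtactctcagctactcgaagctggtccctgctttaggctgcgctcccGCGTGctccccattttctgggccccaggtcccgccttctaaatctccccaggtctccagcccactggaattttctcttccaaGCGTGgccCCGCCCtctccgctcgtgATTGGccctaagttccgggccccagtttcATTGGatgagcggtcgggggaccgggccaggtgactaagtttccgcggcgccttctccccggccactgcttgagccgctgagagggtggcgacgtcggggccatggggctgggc
MICB: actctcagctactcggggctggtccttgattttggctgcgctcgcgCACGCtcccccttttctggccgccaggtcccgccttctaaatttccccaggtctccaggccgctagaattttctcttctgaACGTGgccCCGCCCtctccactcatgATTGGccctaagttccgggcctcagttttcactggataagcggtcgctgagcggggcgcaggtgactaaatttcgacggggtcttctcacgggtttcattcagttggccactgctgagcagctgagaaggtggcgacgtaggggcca
ULBP2: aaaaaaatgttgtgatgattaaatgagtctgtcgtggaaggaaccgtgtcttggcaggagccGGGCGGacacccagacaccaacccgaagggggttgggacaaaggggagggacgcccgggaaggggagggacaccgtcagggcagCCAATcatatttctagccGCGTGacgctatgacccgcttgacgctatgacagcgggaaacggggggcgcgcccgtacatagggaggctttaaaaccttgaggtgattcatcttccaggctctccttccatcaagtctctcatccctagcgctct
ULBP3: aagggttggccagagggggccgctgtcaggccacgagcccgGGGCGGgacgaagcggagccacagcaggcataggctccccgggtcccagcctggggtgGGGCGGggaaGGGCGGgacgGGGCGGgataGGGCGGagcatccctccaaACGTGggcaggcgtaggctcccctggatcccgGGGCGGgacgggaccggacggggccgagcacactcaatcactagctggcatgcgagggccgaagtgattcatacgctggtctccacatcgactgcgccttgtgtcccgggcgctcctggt
The MICA and MICB windows were identical at 246 of 284 aligned positions (86.6%), with 32 further positions opposite gaps. Both held 1 GC box, at 111 and 115 bases before the start site, and an inverted CCAAT box, at 93 and 97 bases before it. MICA held a further inverted CCAAT box 64 bases before the start site and MICB did not. Each held 2 hypoxia cores, in MICB ACGTG 123 and an inverted GCGTG 204 bases before the start site, and in MICA GCGTG at 119 and 201 bases before it. ULBP3 held 6 GC boxes and 1 ACGTG, while ULBP2 held 1 GC box, 1 CCAAT and 1 GCGTG. In the ULBP1 window, which is not printed, 2 GC boxes and 2 GCGTG matches were found. The RefSeq starts of MICA and MICB lie inside the GENCODE release 44 genes, which begin further upstream.

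Across 27305 RefSeq promoters of the same length, 21.6% held ACGTG, found in 2 of the 5 members, and 36.3% held GCGTG, found in 4. GGGCGG was present in 44.6% of all promoters and in all 5 members, and CCAAT in 35.7% and in 3 members. GAANNTTC, part of a heat shock element, was present in 6.87% of promoters and in MICA and MICB. TTCNNGAA (7.84% of promoters) and TGACGT (8.32%), the core of a cyclic AMP response element, matched no member window. None of the matches in a member's window overlapped another. ACGTG lay in the windows of MICB and ULBP3, and GCGTG in those of MICA, MICB, ULBP1 and ULBP2. Binding to these sequences was not tested.

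Total counts were 31789923, 28463579 and 34881739 in VC replicates 1 to 3 and 29139722, 22805385 and 22628246 in VHL-KO replicates 1 to 3. A count of 0 allows up to 3 counts, which is 0.079 counts per 1000000 (CPM, scaled with TMM factors) in the deepest sample and 0.141 in the shallowest, counting error only. Among 6 markers listed for kidney carcinoma cells, PAX8, a transcription factor of the kidney lineage, had 428 ± 38.9 CPM in VC and 614 ± 14.2 in VHL-KO cells (SD, n = 3), and KRT8, KRT18, MET and VIM were also abundant. VIM, a mesenchymal marker that carcinoma cells of the kidney also make, was the most abundant of them, with 6433 ± 445 and 6138 ± 249 CPM. The epithelial marker EPCAM was low, with 1.33 ± 0.299 CPM in VC and 0.491 ± 0.263 CPM in VHL-KO cells. Of these 6 markers 3 rose, 1 fell and 2 did not pass the test, with a median log2 fold change of 0.21 (0.015 with library size alone). KRT18 rose by 0.37 on the log2 scale, a call that was lost with library size alone (0.18, edgeR adjusted p = 0.0724) and with GC offsets (0.11, 0.0964), against 5e-07 to 0.0964 over all alternatives.

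Of 8 NK and T cell markers, CD3E, NKG7, PRF1 and GNLY had 0 counts in every sample, and PTPRC, the pan-leukocyte marker, had at most 1. Their summed level was 0.322, 0.370 and 0.342 CPM in VC replicates 1 to 3 and 1.50, 1.11 and 1.17 CPM in VHL-KO replicates 1 to 3. The most abundant of them in VHL-KO cells was NCAM1, an adhesion molecule also made outside the immune system, with 0 counts in all VC samples and 10, 16 and 17 reads across VHL-KO replicates 1 to 3, at least 7.14-fold higher. NCAM1 passed the filter on low counts only through its VHL-KO samples. KLRD1, a partner chain of the NKG2A receptor, had 1, 0 and 0 reads in VC against 12, 1 and 4 in VHL-KO samples, a ratio of pooled CPM of 24.9 (exact 95% counting interval 3.90 to 1039). KLRD1 passed it only through VHL-KO replicate 1 and could not be fitted without it. CD8A did not pass the test. The leukocyte marker PTPRC and the T cell marker CD3E were thus at or near 0 in both groups, and the part of the other markers in the results was not tested. Only 3 of the 8 markers were tested, and because NCAM1 and KLRD1 were tested through the group in which they are high, nothing is read from a count or median over this list. The receptor gene itself, KLRK1, had 0 counts in all 6 samples, but 62.4% of its exonic bases also lie in other genes, 1 of them on the same strand, where reads may not be assigned to it. HCST, which encodes its signalling adaptor DAP10, had 5, 3 and 0 reads in VC against 11, 4 and 3 in VHL-KO samples and did not pass the test (log2 fold change 1.60, edgeR adjusted p = 0.151). The log2 fold change of HCST was 2.35 without VC replicate 1, 1.00 without VC replicate 3 and 0.91 with GC offsets. Like KLRD1, HCST passed the filter on low counts only through VHL-KO replicate 1, in the group where it is higher. Of its exonic bases 45.7% also lie in a gene on the opposite strand.

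VHL itself had 1454, 1124 and 1522 reads in VC against 929, 657 and 650 in VHL-KO replicates 1 to 3. Its level was 40.2 ± 2.38 CPM in VC and 31.9 ± 2.49 CPM in VHL-KO cells (SD, n = 3), with no overlap between the groups and a log2 fold change of -0.33 (SE 0.11, edgeR adjusted p = 0.0109). An edited gene can still be transcribed, so this count is no check of the edit. Of its exonic bases 23.5% also lie in a gene on the opposite strand. The call was lost with upper quartile factors (-0.22, edgeR adjusted p = 0.0905) and with offsets for GC content and length (-0.092, 0.352). It was also lost when VC replicate 1 was left out (-0.28, edgeR adjusted p = 0.0862) or VHL-KO replicate 2 (-0.30, 0.0621), and the adjusted p ranged from 0.000293 to 0.352 over all alternatives.

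MICA (ENSG00000204520.14) lies at chr6:31399784-31415315 on the plus strand in GENCODE release 44 (GRCh38). It had 550, 494 and 599 reads in VC against 427, 348 and 381 in VHL-KO replicates 1 to 3. Scaled to library size with TMM factors, these were 16.1, 16.6 and 15.8 CPM for VC against 16.0, 16.1 and 17.9 CPM for VHL-KO samples. The groups overlapped, with means of 16.2 ± 0.427 and 16.7 ± 1.05 CPM (SD, n = 3). The log2 fold change was 0.04 (95% interval -0.22 to 0.31, edgeR adjusted p = 0.787), and 52.1% of all tested genes had a log2 fold change at or below it. Its sign was negative with library size alone (-0.15), with offsets for GC content and length (-0.17) and without VHL-KO replicate 3 (-0.0067), again without passing the test. Over all genes the median log2 fold change, -0.01 here, moved to -0.20 without TMM factors (library size alone) and to 0.10 under upper quartile scaling. Relative to these medians the log2 fold change was 0.05 for MICA, -1.56 for MICB and -1.50 for ULBP2 in each case, and -1.29 for ULBP3 in each case.

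MICB (ENSG00000204516.10) lies at chr6:31494881-31511124, on the same strand. It had 589, 497 and 701 reads in VC against 143, 143 and 121 in VHL-KO replicates 1 to 3, which is 17.3, 16.7 and 18.5 CPM against 5.35, 6.63 and 5.68 CPM. Every VHL-KO sample lay far below every VC sample, and the spread within each group was small beside this gap. MICB fell from 17.5 ± 0.892 to 5.89 ± 0.663 CPM (SD, n = 3), a log2 fold change of -1.57 (SE 0.15, edgeR adjusted p = 2.4e-09), with a 95% interval of 2.40 to 3.68 for the fold. Only 5.5% of the tested genes had a log2 fold change at or below that of MICB.

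MICA and MICB are similar in sequence, and reads that fit both were dropped when the authors kept uniquely mapped reads, so the count of either is uncertain by an amount that these counts do not show. For every 100 reads of MICA there were 107, 101 and 117 reads of MICB for VC against 33.5, 41.1 and 31.8 for VHL-KO samples. The 2 genes together summed to 33.4, 33.4 and 34.2 CPM for VC against 21.3, 22.8 and 23.5 CPM for VHL-KO samples. Exchange of reads between these paralogs was not tested. The related MIC pseudogenes took few reads. MICC and MICG had 0 counts in every sample, MICF had 1 count in VHL-KO replicate 1, MICD had 4 counts in VHL-KO replicate 3, and MICE had 0, 1 and 0 reads in VC against 7, 2 and 3 in VHL-KO samples. Of the exonic bases of MICA, 4.05% also belong to other annotated genes, and of those of MICB 1.97%, which lie in the divergent transcript MICB-DT. The strand setting of the counts is not given in the sources used here, and MICB-DT had only 8, 8 and 5 reads in VC against 3, 2 and 3 in VHL-KO samples.

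**Figure D1:**
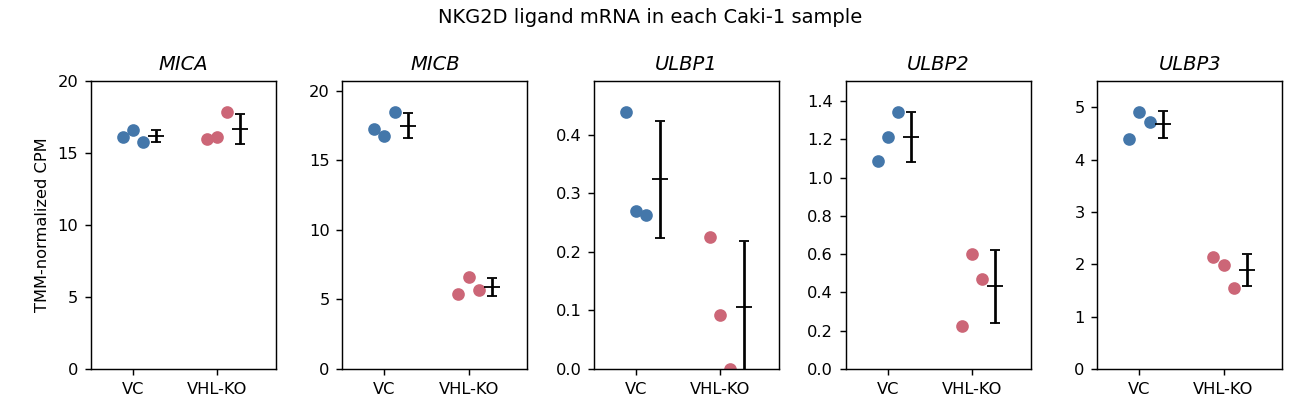
Level of each ligand gene in TMM-normalized CPM (linear axes from 0, a separate scale for each gene), with 1 point for each of the 3 VC and 3 VHL-KO samples and a bar beside them for mean ± SD, the lower end of which is drawn no further than 0. The groups overlapped for MICA, and all VHL-KO points lay below all VC points for the other 4 genes.

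ULBP3 (ENSG00000131019.11), at chr6:150061053-150069121 on the minus strand, was the most abundant of the 3 ULBP members per length in both groups. It had 150, 146 and 179 reads in VC against 57, 43 and 33 in VHL-KO replicates 1 to 3, or 4.39, 4.91 and 4.71 CPM against 2.13, 1.99 and 1.55 CPM. The lowest VC sample thus lay well above the highest VHL-KO sample. ULBP3 fell from 4.67 ± 0.263 to 1.89 ± 0.306 CPM (SD, n = 3), a log2 fold change of -1.30 (SE 0.21, edgeR adjusted p = 1.2e-05), with a 95% interval of 1.81 to 3.33 for the fold.

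ULBP2 (ENSG00000131015.5), at chr6:149942014-149949235 on the plus strand, had 37, 36 and 51 reads in VC against 6, 13 and 10 in VHL-KO replicates 1 to 3. Its levels were 1.08, 1.21 and 1.34 CPM for VC against 0.225, 0.603 and 0.469 CPM for VHL-KO samples. The groups did not overlap, although the VHL-KO samples were spread widely for their level. ULBP2 fell from 1.21 ± 0.130 to 0.432 ± 0.192 CPM (SD, n = 3), a log2 fold change of -1.51 (SE 0.42, edgeR adjusted p = 0.00308), with a wide 95% interval of 1.57 to 5.17 for the fold.

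ULBP1 (ENSG00000111981.5), at chr6:149963943-149973715 on the plus strand, had only 15, 8 and 10 reads in VC against 6, 2 and 0 in VHL-KO replicates 1 to 3. In CPM these were 0.439, 0.269 and 0.263 against 0.225, 0.0927 and 0, with means of 0.324 ± 0.0999 and 0.106 ± 0.113 (SD, n = 3). The groups did not overlap, but the difference rested on few reads and did not pass the test. The log2 fold change was -1.50 (95% interval -3.22 to 0.23, edgeR adjusted p = 0.126). Pooled over the samples of a group there were 33 reads for VC against 8 for VHL-KO samples, a VC to VHL-KO ratio of pooled CPM of 2.82 with an exact 95% counting interval of 1.28 to 7.07 that leaves out the spread between samples. Without VHL-KO replicate 1, the VHL-KO sample with the most ULBP1 reads, the log2 fold change was -2.68 and passed the threshold (edgeR adjusted p = 0.0436, the lowest of a range up to 0.337 over the alternatives). The exons of ULBP1, ULBP2 and ULBP3 share no bases with those of other annotated genes.

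The 3 remaining human ligand genes of the ULBP family were not tested for want of reads. RAET1E (ULBP4) had 0, 0 and 2 reads in VC against 1, 0 and 0 in VHL-KO samples, RAET1G (ULBP5) 2, 0 and 1 against 2, 2 and 0, and RAET1L (ULBP6) 1 count in all. All were at or under the floor of 3 counts in each sample, and no difference was detectable at this depth.

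**Figure D2:**
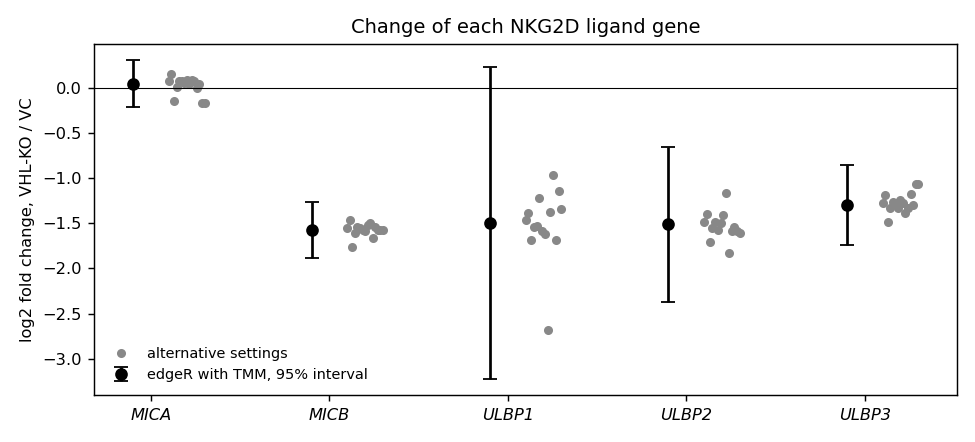
Log2 fold change of each ligand gene, VHL-KO over VC, as a black point with its 95% interval (edgeR, TMM factors, 3 against 3 samples) and as grey points under the alternatives in scaling, filter, tool, samples, pairing and GC content. MICB, ULBP2 and ULBP3 lay below 0 throughout, MICA lay on either side of 0, and the interval of ULBP1 spanned 0.

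GC content of the longest transcript was 55.0% for MICA, 50.2% for MICB, 47.0% for ULBP2, 45.9% for ULBP3 and 43.0% for ULBP1. With offsets that remove the trend of each sample with GC content and length, the log2 fold change was -1.58 for MICB, -1.58 for ULBP2 and -1.06 for ULBP3, and these 3 genes again passed the test. The part of GC content in the results was not tested beyond these offsets.

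Ratios between members within a sample are free of the scaling between libraries. Of the 10 pairs, the 4 that set another member against MICA had no overlap between groups, and the other 6 pairs overlapped. The mean log2 ratio of MICB to MICA was 0.11 ± 0.11 in VC and -1.50 ± 0.20 in VHL-KO samples (SD, n = 3), a difference of -1.61. The differences for ULBP1, ULBP2 and ULBP3 over MICA were -1.96, -1.58 and -1.35. The size of the ULBP1 difference is uncertain, because VHL-KO replicate 3 had 0 ULBP1 reads and its ratio is set by the 0.5 counts added. With 1 replicate left out at a time it ran from -2.73 to -0.97. The two-sided exact permutation p was 0.1 for each of these 4 pairs, the smallest that 3 against 3 samples allow, and 0.25 after adjustment over the 10 pairs, so the threshold could not be reached. For the ratio of ULBP3 to MICB the difference was 0.27 (exact permutation p = 0.2, adjusted 0.4), and for ULBP2 to MICB it was 0.03 (exact permutation p = 1). The 95% intervals of the fitted log2 fold changes of MICB (-1.88 to -1.27), ULBP3 (-1.74 to -0.86) and ULBP2 (-2.37 to -0.65) all lay below that of MICA, and that of ULBP1 overlapped it.

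To compare levels between genes, counts were divided by the length of all annotated exons and expressed as transcripts per 1000000 (TPM). In VC cells the order was MICB with 21.4 ± 1.43 TPM, MICA with 14.4 ± 0.225, ULBP3 with 5.14 ± 0.302, ULBP2 with 3.11 ± 0.376 and ULBP1 with 0.344 ± 0.104 TPM (SD, n = 3), and no neighbours in this order overlapped. In VHL-KO cells MICA came first with 11.0 ± 1.06 TPM, then MICB with 5.36 ± 0.748, ULBP3 with 1.54 ± 0.206, ULBP2 with 0.833 ± 0.388 and ULBP1 with 0.0815 ± 0.0850 TPM, again without overlap between neighbours. The order of MICA and MICB in VC cells depended on the length used. With the longest transcript as length they had 18.0 ± 0.159 and 18.2 ± 1.33 TPM and overlapped, while in VHL-KO cells MICA still lay above MICB, with 14.2 ± 1.34 against 4.69 ± 0.634 TPM.

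MICA thus made up 32.4% of the summed TPM of the 5 genes in VC and 58.6% in VHL-KO cells, and MICB 48.2% and 28.4%. With the longest transcript as length, the shares were 42.4% and 68.4% for MICA and 42.8% and 22.6% for MICB. On the TPM scale, which carries no TMM factor, the MICA level was also lower in every VHL-KO sample (10.1 to 12.2 TPM against 14.2 to 14.6 TPM), unlike on the CPM scale of the test. TPM is therefore read here for the order, the shares and the rank among genes, not for fold changes between groups. Among the tested genes with an annotated length, 71.9% had a lower mean TPM than MICB in VC and 53.8% in VHL-KO cells. For MICA these shares were 65.0% and 66.8%, for ULBP3 46.5% and 30.6%, for ULBP2 38.2% and 21.0%, and for ULBP1 9.71% and 2.2%.

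**Figure D3:**
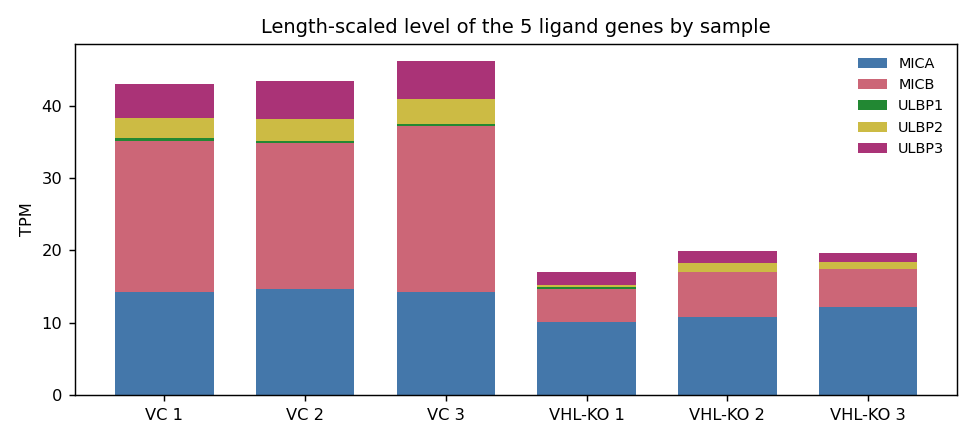
Stacked bars of the TPM of the 5 ligand genes (exon union as length) in each of the 6 samples, on a linear axis from 0. MICB was the largest segment of each VC bar (46.5% to 49.6%) and MICA that of each VHL-KO bar (54.5% to 61.7%), while bar heights carry no TMM factor and are not compared between groups.

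The members lie in 2 groups of neighbouring genes on chromosome 6. Within 250 kb of MICA or MICB there were 77 other genes in the table, of which 29 were tested. Of these, 12 rose, 3 fell and 14 did not pass the test, with a median log2 fold change of 0.52, beside 28.5% higher and 31.2% lower over all tested genes. Among genes past the threshold, the largest fitted changes were those of LST1, whose rank rests on a fit to counts of 0, a pseudogene named XXbac-BPG248L24.12 and HLA-B. LST1, a leukocyte gene 75.0 kb from MICB, had 4, 9 and 12 counts in VC and 0 in all VHL-KO samples, at least 1.88-fold lower against the mean floor of 3 counts per library. It passed the filter on low counts only through VC replicate 3, and it is counted among the 3 that fell. HLA-B, the class I heavy chain gene 32.7 kb from MICA, rose from 247 ± 20.2 to 1481 ± 54.8 CPM (log2 fold change 2.58 (SE 0.09), edgeR adjusted p = 5e-17). The pseudogene lies within the span of HLA-B and had 9, 20 and 12 reads in VC against 102, 113 and 87 in VHL-KO samples (log2 fold change 3.41, and 2.63 with GC offsets). HLA-B is highly polymorphic and has close relatives, so both counts are uncertain. HCP5, a long noncoding RNA gene that lies between MICA and MICB and was singled out after its values were seen, had 213, 149 and 210 reads in VC against 813, 649 and 681 in VHL-KO samples. Its log2 fold change was 2.46 (SE 0.14, edgeR adjusted p = 1.7e-13).

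Within 250 kb of the 3 ULBP members there were 27 other genes, of which 7 were tested. Of these 5 fell and 2, both long noncoding RNA genes, did not pass the test, beside 31.2% lower and 28.5% higher over all tested genes. Their median log2 fold change was -0.77. Among those that fell, the 3 largest fitted changes were those of RAET1K, LRP11 and PCMT1. RAET1K, a transcribed pseudogene of the ULBP family 26.4 kb from ULBP1, had 15, 9 and 20 reads in VC against 0, 2 and 0 in VHL-KO samples, a VC to VHL-KO ratio of pooled CPM of 15.04 (exact 95% counting interval 3.92 to 128), and passed the filter on low counts only through its VC samples. RAET1K is counted among the 5 that fell, although it was tested through the group in which it is high. A second gene model of the same name covers all its exonic bases on the same strand, so its count is uncertain. LRP11, a receptor-related membrane protein gene, fell from 2.62 ± 0.333 to 0.697 ± 0.0992 CPM (log2 fold change -1.91), and PCMT1, which encodes a protein repair methyltransferase, from 51.9 ± 5.85 to 30.2 ± 2.74 CPM (log2 fold change -0.78). With GC and length offsets these were -1.84 for LRP11 and -0.58 for PCMT1, both past the threshold. With LST1 at its bound and RAET1K at its pooled ratio, the medians of the 2 regions were 0.52 and -0.77 as before. The part of GC content in these medians was not tested.

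**Figure D4:**
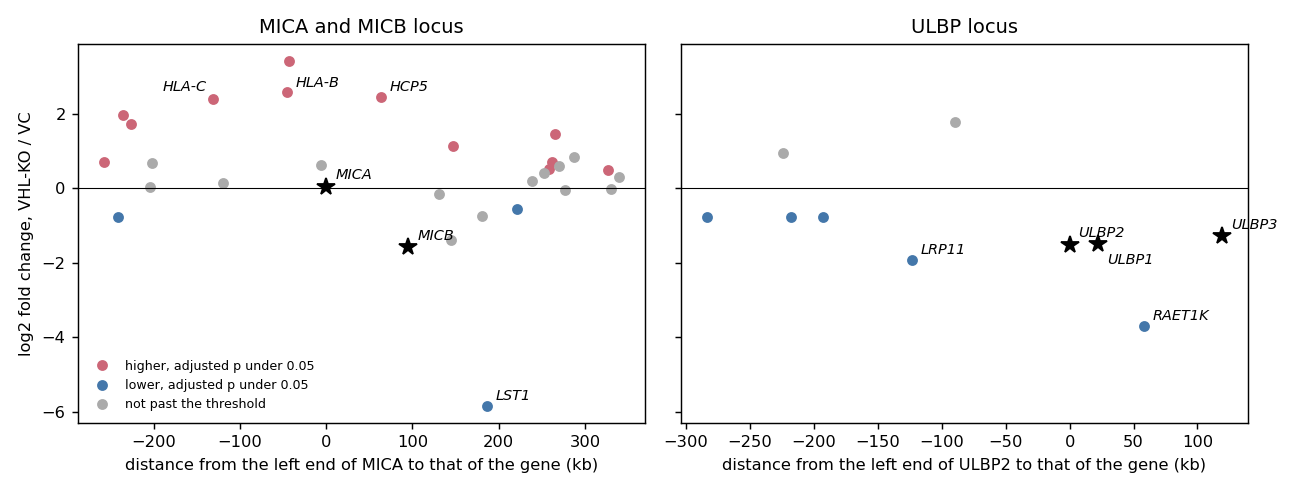
Log2 fold change (VHL-KO over VC) of the tested genes around MICA and MICB (left) and around the ULBP genes (right) against the distance in kb from the left end of MICA or ULBP2 to that of the gene. Stars mark the 5 ligand genes and colours the edgeR call. The values of LST1 and RAET1K are fitted to counts at or near 0 in VHL-KO samples and are no bounds.

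Genes that act on the ligand proteins or their transcription were taken from lists. Of 8 genes of ligand shedding and processing, 6 fell, 1 rose and 1 did not pass the test. Over all tested genes 31.2% were lower and 28.5% higher. The median log2 fold change of the list was -0.66 against -0.01 over all genes. MMP14, a membrane protease that can shed MICA, fell from 82.9 ± 7.31 to 11.5 ± 1.29 CPM (log2 fold change -2.86, edgeR adjusted p = 8.6e-16). MMP2 had 12, 21 and 16 reads in VC against 2, 0 and 0 in VHL-KO samples, a VC to VHL-KO ratio of pooled CPM of 16.8 (exact 95% counting interval 4.40 to 142), and passed the filter on low counts only through its VC samples. MMP2 is counted among the 6 that fell, although it was tested through the group in which it is high. With MMP2 at that ratio the median of the list was -0.66 as before. ADAM9 (log2 fold change -1.22), MMP9 (-0.88) and PDIA6 (-0.43), a disulfide isomerase that takes part in MICA shedding, also fell, and HSPA5 did not pass the test. With offsets for GC content and length these values were -0.65 for ADAM9, -1.32 for MMP9 and -0.23 for PDIA6, all past the threshold. MMP9 did not pass without VHL-KO replicate 2 (-0.60, edgeR adjusted p = 0.0585, the highest of a range from 0.000201 over the alternatives).

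Of 18 regulators of ligand transcription or mRNA, 12 fell, 4 rose and 2 did not pass the test. Over all tested genes 31.2% were lower and 28.5% higher. The median log2 fold change of the regulators was -0.63. HIF1A, which encodes a hypoxia-inducible factor subunit, had the largest change in mRNA, from 65.7 ± 14.1 to 12.9 ± 1.55 CPM (log2 fold change -2.35, edgeR adjusted p = 6.4e-13, and -1.76 with GC offsets). These counts do not measure protein. By immunoblot the study found that HIF1α and HIF2α protein accumulated in Caki-1 cells on VHL loss. At the mRNA level SP3 (-1.50), which binds GC boxes, and E2F1 (-1.45) and E2F2 (-1.38), which drive genes of the cell cycle, fell as well. So did IGF2BP3 (-1.37), an RNA-binding protein that acts on ligand mRNAs. With GC offsets the values were -0.96 for SP3, -1.83 for E2F1, -1.55 for E2F2 and -0.88 for IGF2BP3. All were past the threshold, but their order changed. SP1, the relative of SP3, and ATF4, a stress factor known to drive ULBP1, did not pass the test. Of 5 DNA damage kinases 3 fell, PRKDC (-1.40), CHEK1 (-1.39) and ATR (-0.95), while ATM and CHEK2 did not pass the test. Over all tested genes 59.7% passed in either direction and 31.2% were lower, so nothing particular to the kinases is read from this count. Their median was -0.95 (-0.43 with GC offsets). With these offsets PRKDC was at -1.15, CHEK1 at -0.95 and ATR at -0.43, all past the threshold.

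Among 10 heat shock genes 7 fell, 2 rose and 1 did not pass the test, beside 31.2% lower and 28.5% higher over all tested genes. Their median log2 fold change was -0.78. HSPH1 fell from 272 ± 54.9 to 71.5 ± 8.26 CPM (log2 fold change -1.93, edgeR adjusted p = 1.6e-12), and HSPA1B (-1.57) and the mitochondrial chaperonin gene HSPD1 (-1.50) fell too. With GC offsets these were -1.40 for HSPH1, -1.89 for HSPA1B and -0.95 for HSPD1, all past the threshold. HSPA1B is nearly identical to HSPA1A, so its count is uncertain. HSPB1, a small heat shock protein gene, rose by 0.95 on the log2 scale, and by 0.30 with offsets for GC content and length. HSPA6 rose by 1.23 on few reads (10, 11 and 17 counts in VC, 24, 20 and 17 in VHL-KO samples), and its call was lost with library size alone (1.03, edgeR adjusted p = 0.0522) and with offsets for GC content (0.88, 0.0953). Leaving out VC replicate 1 (1.09, edgeR adjusted p = 0.104), VC replicate 2 (1.24, 0.0541) or VHL-KO replicate 1 (1.21, 0.0518) also ended it, and the adjusted p ranged from 0.00327 to 0.127 over all alternatives.

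Ligands of other NK cell receptors did not move in 1 direction. Of 15 listed genes 12 were tested, and 4 rose, 4 fell and 4 did not pass the test. Over all tested genes 28.5% were higher and 31.2% lower. The median log2 fold change of the list was 0.057, and it was negative with library size alone (-0.13) and with GC offsets (-0.029). CLEC2B, which encodes the ligand of the activating receptor NKp80, had 355, 223 and 392 reads in VC against 1230, 1029 and 911 in VHL-KO samples. It rose from 9.41 ± 1.65 to 45.5 ± 2.53 CPM (SD, n = 3), a log2 fold change of 2.27 (SE 0.13, edgeR adjusted p = 4.6e-13). HLA-E, the ligand of the inhibitory receptor NKG2A, rose from 156 ± 14.6 to 467 ± 6.59 CPM (log2 fold change 1.58), and CLEC2D, the ligand of the inhibitory receptor CD161, rose by 0.92 on the log2 scale. CD274, which encodes the checkpoint ligand PD-L1, fell from 1.18 ± 0.403 to 0.296 ± 0.0724 CPM (log2 fold change -1.97, edgeR adjusted p = 0.00054). PCNA, the replication clamp, also described as a ligand of NKp44, fell by 1.90 on the log2 scale. PVR, BAG6, ICAM1 and VIM did not pass the test, CD48 and SLAMF7 had 0 counts in every sample, and CEACAM1 had at most 1.

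The GPI transamidase and anchor processing enzymes attach or remodel the anchor that ULBP proteins use. Of their 6 tested genes 2 were higher, 2 lower and 2 did not pass the test. Over all tested genes 28.5% were higher and 31.2% lower. The median log2 fold change of the 6 genes was -0.080, and it was positive with upper quartile factors (0.032) and with GC offsets (0.0068). PIGK, the catalytic subunit, fell from 20.03 ± 4.01 to 7.17 ± 1.16 CPM (log2 fold change -1.49, edgeR adjusted p = 3.3e-08, and -0.88 with GC offsets), while PIGT, another subunit, rose from 137 ± 10.0 to 276 ± 6.12 CPM (log2 fold change 1.02, edgeR adjusted p = 5.9e-10). GPAA1 rose by 0.43, a call that was lost with offsets for GC content (0.012, edgeR adjusted p = 0.862, against 2.2e-07 to 0.87 over all alternatives). PIGU fell by 0.35 on the log2 scale, and its call was lost with upper quartile factors (-0.24, edgeR adjusted p = 0.0716) and without VC replicate 1 (-0.33, 0.0527), against 5e-05 to 0.0716 over all alternatives.

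**Figure D5:**
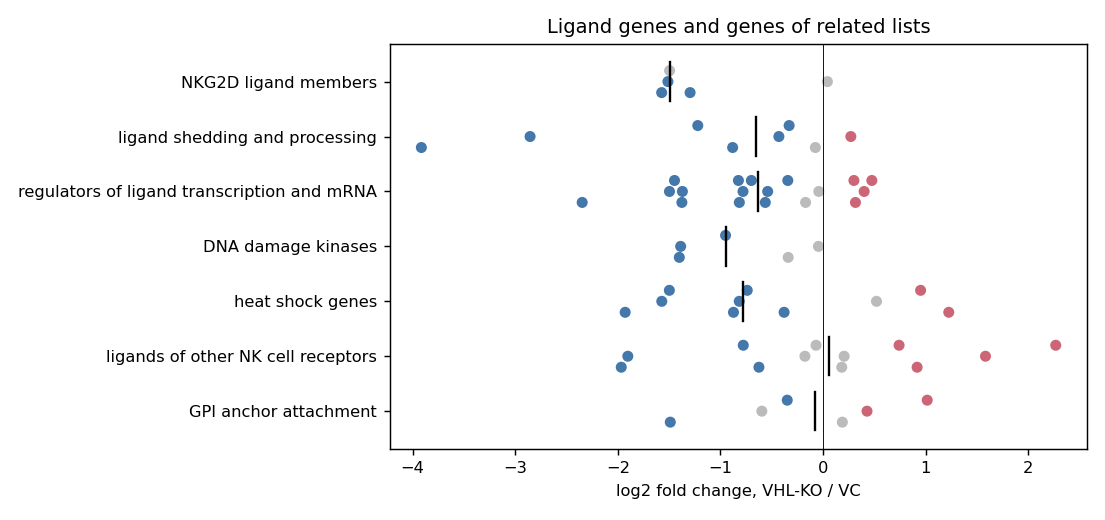
Log2 fold change (VHL-KO over VC) of the tested genes of each list, red for higher and blue for lower in VHL-KO cells at an edgeR adjusted p under 0.05 and grey for genes that did not pass, with a black line at the median of each list. Points are offset vertically for legibility, and the value of MMP2 (leftmost point) is fitted to counts near 0.

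For each member, the genes most like it were those with the smallest root mean square difference in mean-centred log2(CPM + 0.5) over the 6 samples, among genes with at least 1 CPM on average. For MICB they were CSNK1A1 (difference 0.0438), INTS7 (0.0484) and CDCA2 (0.0487), and for ULBP3 LYPD6 (0.049), PIK3R3 (0.0492) and BOLA3 (0.0616). With GC and length offsets the log2 fold change was -1.58 for MICB but -1.015 for CSNK1A1, -1.07 for INTS7 and -1.25 for CDCA2. For ULBP3 it was -1.06, with -0.90 for LYPD6, -1.19 for PIK3R3 and -1.14 for BOLA3. The matches thus belong to the CPM scale and were not sought with these offsets. The nearest to MICA were PRAME (0.0178), APH1A (0.0249) and GANAB (0.0268). For ULBP2 they were RBM15 (0.0656), ZXDB (0.0664) and FAM72B (0.0682), and for ULBP1 MILR1 (0.0708), RP11-582J16.5 (0.0841) and GPATCH4 (0.0867). The added 0.5 CPM shrinks the differences between samples of genes near or below that level, so the matches of ULBP2 and ULBP1 are to genes with smaller fold changes than their own, between -1.02 and -0.89 for ULBP2 and between -0.56 and -0.47 for ULBP1.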

How the data were processed

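RNA-seq counts of 6 Caki-1 samples (3 VC, 3 VHL-KO), grouped by their labels, were used. Per the study's methods, total RNA (Trizol) was run on an Illumina NovaSeq, and reads were trimmed (Trim Galore, cutadapt), aligned with STAR to GRCh38.p13, restricted to unique alignments (SAMtools) and counted with HTSeq. The raw count of reads per gene is as deposited by the authors. Tool versions, annotation release and strand setting are not given in the sources used here. Pairs of replicates varied beyond counting error (chi-square per degree of freedom 6.03 to 31.9).

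Genes reaching 10 reads in at least 1 sample (17401 of 60708) were tested with edgeR 4.0.16 in R 4.3.3 (TMM factors, quasi-likelihood F test, two-sided, Benjamini-Hochberg adjustment over all tested genes, threshold 0.05), and the code was tested on simulated data. DESeq2 1.42.0, other scalings, filters, left-out samples, a replicate block and GC offsets were alternatives. Positions, lengths and GC content came from GENCODE release 44 (GRCh38), which matched 17355 tested genes, and promoters from RefSeq (GRCh38.p14). Pair ratios had 0.5 counts added. Python 3.11.15 with matplotlib 3.10.9 drew the plots.

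Members and lists were chosen with earlier results of these data known. Named were all members, VHL, related ligand, pseudogene and receptor genes, the 5 largest changes past the threshold in each list, the 3 largest in each region within 250 kb of members, and the 3 genes most like each member.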

Additional observations from a re-analysis of the deposited data

How the results depend on the processing

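MICB, ULBP2 and ULBP3 were lower in VHL-KO cells and passed the threshold in every alternative in which they were fitted, with log2 fold changes from -1.77 to -1.46, -1.83 to -1.17 and -1.49 to -1.06. MICA passed in none (-0.17 to 0.15). The number of members past the threshold was 3 in each alternative except 2 with at least 10 reads in every sample, where ULBP1 and ULBP2 could not be fitted, and 4 without VHL-KO replicate 1, where ULBP1 also passed. For ULBP1, leaving out 1 replicate at a time gave -2.68 to -0.97. The count over all genes ranged from 9215 to 10501. With library size alone 64.2% of the genes past the threshold were lower in VHL-KO cells, against 52.3% with TMM factors, 49.6% with GC and length offsets and 45.0% with upper quartile factors, so which direction was in the majority depended on the scaling.

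VHL did not pass with upper quartile factors (-0.22), GC and length offsets (-0.092) or these offsets with the replicate block (-0.096), the cause of which was not tested, and leaving out 1 replicate at a time gave -0.39 to -0.28. APH1A, which passed in neither direction with TMM factors, was lower at -0.19 with GC and length offsets, with or without the replicate block. Of the other values of named genes under an alternative, 809 held their side of the threshold and 17 lost their call.

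With the longest transcript as length, the TPM of MICA was 18.0 in VC and 14.2 in VHL-KO cells, of MICB 18.2 in VC, of ULBP2 2.29 in VC, and of ULBP3 3.78 in VC and 1.16 in VHL-KO cells. Leaving out 1 replicate at a time, chosen after seeing the data, kept the sign of the 4 separated ratios to MICA (MICB -1.72 to -1.54, ULBP1 -2.73 to -0.97, ULBP2 -1.89 to -1.21, ULBP3 -1.47 to -1.16).

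Deviations of samples with the same replicate number correlated at 0.0627, -0.000449 and 0.0283, so no shared effect of the number was seen. These values cannot show whether samples of the same number were handled together. With the replicate block, 10284 genes and 3 members passed, with MICB at -1.57, and no call of a member changed. Few reads limit ULBP1 and ULBP2, with 8 and 29 pooled counts in VHL-KO samples.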
